A study of Mus musculus with 6 samples.

Results

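The genes described here encode nuclear subunits and assembly factors of respiratory complex I. They were chosen by name, as every gene in the table whose symbol starts with Nduf, leaving out names with -ps. The rule found 46 of 16199 genes, and all 46 passed the filter on low values. RNA from infarcted mouse myocardium was sequenced after enrichment for polyadenylated transcripts. The groups were 3 libraries labelled as Itih5 knockdown and 3 labelled wild type, and every mouse had its left anterior descending coronary artery ligated 7 days earlier. Itih5 encodes a secreted heavy chain that binds hyaluronan, and the study asked whether it acts on scarring through the immune response. The labels do not say how the knockdown was made, in which cells, or whether each library is a separate mouse. The p-values measure only how far these 6 libraries vary, and that variation may be technical.

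Complex I is the largest complex of the mitochondrial respiratory chain. It takes electrons from NADH, passes them along iron-sulfur clusters to ubiquinone, and pumps protons across the inner membrane. Its L shape has a matrix arm, where NADH is oxidised, and a membrane arm, where protons are pumped. Core subunits carry out the catalysis, with those of the membrane arm encoded in mitochondrial DNA. Accessory subunits surround the core, and assembly factors help to build the complex without staying in it. Heart muscle is packed with mitochondria, and loss of muscle in an infarct removes much of the tissue that makes these transcripts. Because the samples are bulk tissue, fewer cells of a type and less RNA per cell cannot be told apart.

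The values are deposited on a scale close to TPM, which corrects for transcript length, but are adjusted between libraries by a step that the labels do not describe. Read depth is unknown. Column totals ran from 901558 to 1159652, and the highest belonged to the library labelled knockdown replicate 1. Itih5 itself was not lower in the libraries labelled knockdown, at 18.4, 10.5 and 19.96 against 9.73, 13.1 and 17.2 in wild type (log2 difference 0.26, 95% interval -0.39 to 0.90, exact two-sided permutation p = 0.5, where 0.1 is the smallest possible). Directions below therefore refer to the labels. Defining heart muscle genes such as Myh6, Myl2 and Tnnt2 were well above 0 in every library.

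As a group, the nuclear complex I subunit genes stood highest in a single library, the one labelled knockdown replicate 1. The column of this library also differed in its low values: it had 1077 values above 0 but under 0.2, against 0 in each of the other 5, and 211 genes listed at 0, against 731 to 1080. The part of this difference in the Nduf values was not tested. In the library labelled knockdown replicate 1, the 46 Nduf genes had a median of 1.72 times their own wild-type mean. The same median was 1.11 in the library labelled knockdown replicate 2 and 1.01 in replicate 3, against 1.05, 1.02 and 0.942 in wild-type replicates 1, 2 and 3. Summed over the 46 genes, the values were 11463, 7156 and 6476 in the libraries labelled knockdown, against 6717, 6599 and 6013 in wild type. As a share of each column, which sets aside differences in column totals, this was 0.988%, 0.743% and 0.649% against 0.688%, 0.703% and 0.667%. Across all tested genes the median in the library labelled knockdown replicate 1 was 0.987 times the wild-type mean, so the table as a whole was not shifted. The rise was not particular to the Nduf genes. In that library complexes III, IV and V had medians of 2.00, 1.87 and 1.78. At or above 1.5 times the wild-type mean were 36 of the 46 members and 13.3% of all tested genes.

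No Nduf gene passed the test. The fitted log2 differences, labelled knockdown minus wild type, were above 0 for 44 of the 46 (50.8% of all genes), with a median of 0.32 and a range from -0.14 to 0.60, beside a median of 0.00 over all 14025 genes tested. With limma and Benjamini-Hochberg adjustment over all tested genes, 0 members were higher and 0 lower, where 0% of all genes were called in either direction, and the smallest adjusted p of a member was 0.301. At an unadjusted p under 0.05 there were 4 members, all higher, a share near the 8.29% of all genes that were higher at that level (6.55% were lower). The groups did not overlap for 10 members, each higher in the libraries labelled knockdown, beside 12.6% of all genes. These 10 were Ndufs8, Ndufa1, Ndufa2, Ndufa7, Ndufa11, Ndufa13, Ndufb3, Ndufb7, Ndufaf4 and Ndufaf6. The closest libraries of the groups nearly touched for Ndufa7 (275.4 and 275.1), Ndufa11 (99.8 and 99.5) and Ndufb7 (52.9 and 52.6). No member was lower without overlap, beside 9.88% of all genes. With columns rescaled to the same sum, 5 members were higher without overlap (5.92% of all genes) and 1 was lower (17.1%). The median of the members was 0.05, with 36 of 46 above 0, once the library labelled knockdown replicate 1 was left out.

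**Figure D1:**
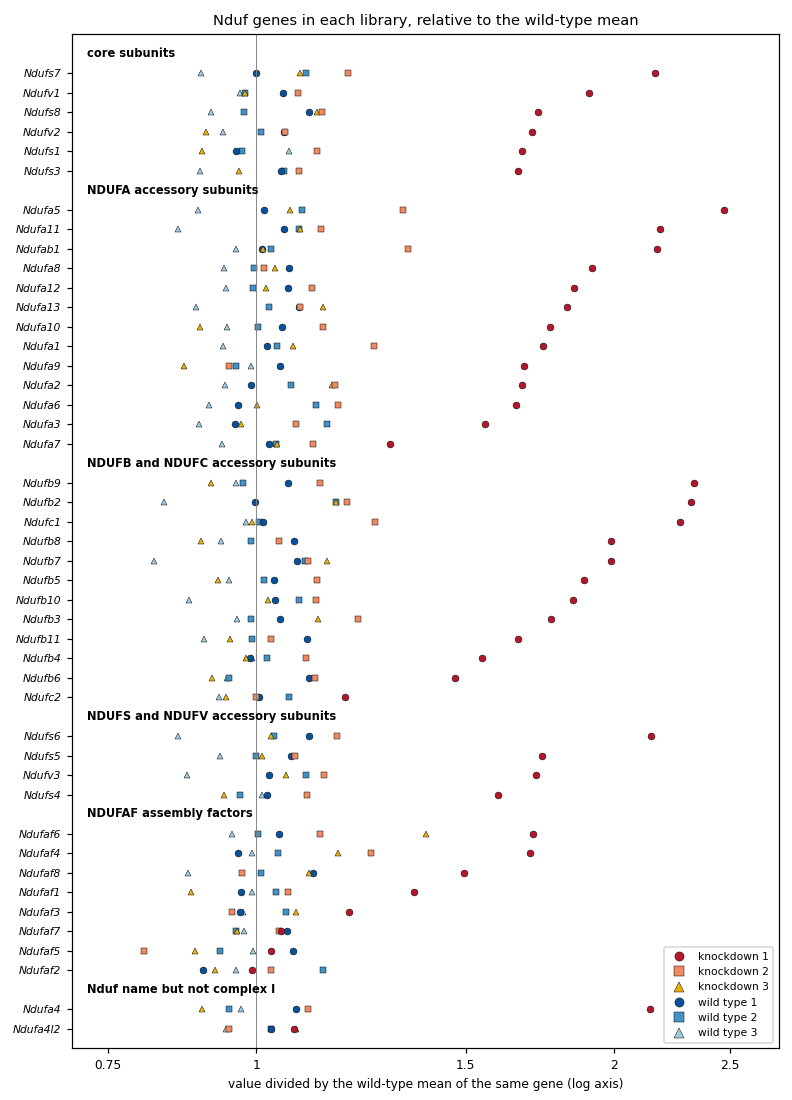
Each row is an Nduf gene (45 of the 46), grouped by role, and each point is a library. The horizontal log axis gives the value divided by the wild-type mean of that gene. The library labelled knockdown replicate 1 lies to the right for nearly all subunits, from 1.19 for Ndufc2 to 2.47 for Ndufa5, while Ndufaf2, Ndufaf5, Ndufaf7 and Ndufa4l2 stay near 1.

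The 7 nuclear core subunits were all higher on average in the libraries labelled knockdown, with log2 differences of up to 0.50 and a median of 0.27. Ndufv1, which encodes the subunit that binds NADH and flavin, was at 276, 157 and 142 in the libraries labelled knockdown and at 152, 142 and 140.2 in wild type. Ndufv2, an iron-sulfur subunit next to it, was at 270.3, 167 and 144 against 167, 159.6 and 148. The large iron-sulfur subunit gene Ndufs1 was at 100.2, 67.4 and 53.9 against 57.6, 58.2 and 63.8. In all 3, replicate 1 of the labelled knockdown group stood apart and the other libraries of that group lay among or beside the wild-type values.

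Further core subunits followed the same order. Ndufs7, which carries the last iron-sulfur cluster before ubiquinone, was at 292, 161 and 147 in the libraries labelled knockdown and 135, 148 and 121 in wild type. It had the largest log2 difference of the core, 0.50 (SE 0.25, limma adjusted p = 0.377), and its groups overlapped through wild-type replicate 2 and the library labelled knockdown replicate 3. Ndufs3 was at 303, 198 and 177 against 191, 193 and 164, and overlapped as well.

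Ndufs8, another iron-sulfur subunit, was the core gene whose groups did not overlap. It was at 225, 148 and 147 in the libraries labelled knockdown and at 145, 128 and 119 in wild type, with means of 173 ± 44.8 and 131 ± 12.8 (SD, n = 3 each). The gap between the closest libraries of the 2 groups was small beside that SD, and the log2 difference was 0.38 (SE 0.18, limma adjusted p = 0.361). With replicate 1 of the labelled knockdown group left out it was 0.18.

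Accessory subunits of the NDUFA series gave a median log2 difference of 0.36 over 13 genes, all above 0. In the library labelled knockdown replicate 1 they stood at 1.30 to 2.47 times their wild-type mean. Ndufa2, a thioredoxin-like subunit of the matrix arm, was at 559, 390.0 and 387 against 331, 358 and 315 in wild type. It was higher in all 3 libraries labelled knockdown than in any wild-type library (log2 difference 0.39, SE 0.17, limma adjusted p = 0.333), and at 0.22 without replicate 1 of the labelled knockdown group.

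Ndufa1, an X-linked membrane arm subunit needed for assembly, was at 466, 336 and 287 in the libraries labelled knockdown, against 273, 279 and 251 in wild type. The closest pair, 287 and 279, differed by less than the wild-type SD of 14.7 (log2 difference 0.41, SE 0.18, limma adjusted p = 0.343). Ndufa5, of the matrix arm, was at 343, 184 and 148 against 141, 151 and 124. It had the largest log2 difference of all 46 genes, 0.60 (SE 0.29, limma adjusted p = 0.361), and this was 0.25 without replicate 1 of the labelled knockdown group. Ndufab1, which encodes the mitochondrial acyl carrier protein that also serves fatty acid and lipoic acid synthesis, had 0.51 (SE 0.25). The other NDUFA genes lay between Ndufa9 at 0.16 and Ndufa11 at 0.48, with Ndufa13 at 0.40, Ndufa12 at 0.36, Ndufa8 at 0.34, Ndufa6 at 0.32, Ndufa10 at 0.28, Ndufa3 at 0.24 and Ndufa7 at 0.20. Ndufa9, a matrix arm subunit near the quinone site, was lower in the other libraries labelled knockdown (99.1 and 90.8) than in any wild-type library (109, 100.5 and 103), while replicate 1 was at 175.

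NDUFB and NDUFC genes, whose products belong to the membrane arm, had a median of 0.34 over 12 genes, all above 0. Ndufb3 was at 339, 233 and 216 in the libraries labelled knockdown and at 200.2, 189.6 and 184 in wild type, with means of 262 ± 66.7 and 191 ± 8.05 (SD, n = 3 each). Its groups did not overlap (log2 difference 0.43, SE 0.17, limma adjusted p = 0.330). The closest pair, 216 and 200.2, was wider apart than the wild-type SD but closer than the SD of the labelled knockdown group. Without replicate 1 of the labelled knockdown group it was 0.23. Ndufb7 was at 95.1, 52.9 and 54.9 against 51.7, 52.6 and 39.2, where 52.9 and 52.6 nearly touched. The low-level gene Ndufb2 was at 31.8, 16.3 and 16.0 against 13.7, 16.0 and 11.5, so its groups met within a rounding step.

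Ndufb9, which had the highest mean level of all members, was at 868, 421 and 340.3 in the libraries labelled knockdown and 396, 362 and 357 in wild type. Its SD in the labelled knockdown group, 284 around a mean of 543, exceeded that in wild type, 20.7 around 372, and replicate 3 of that group was the lowest of the 6 libraries. The log2 difference of 0.43 (SE 0.32) was 0.03 without replicate 1. Ndufc2 stood out from its group: it was at 284, 239 and 226 against 240.2, 255 and 223, with a log2 difference of 0.06 (SE 0.12). The others ran from 0.20 for Ndufb6 to 0.50 for Ndufc1, through Ndufb11 (0.24), Ndufb4 (0.25), Ndufb8 (0.30), Ndufb5 (0.32) and Ndufb10 (0.37).

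**Figure D2:**
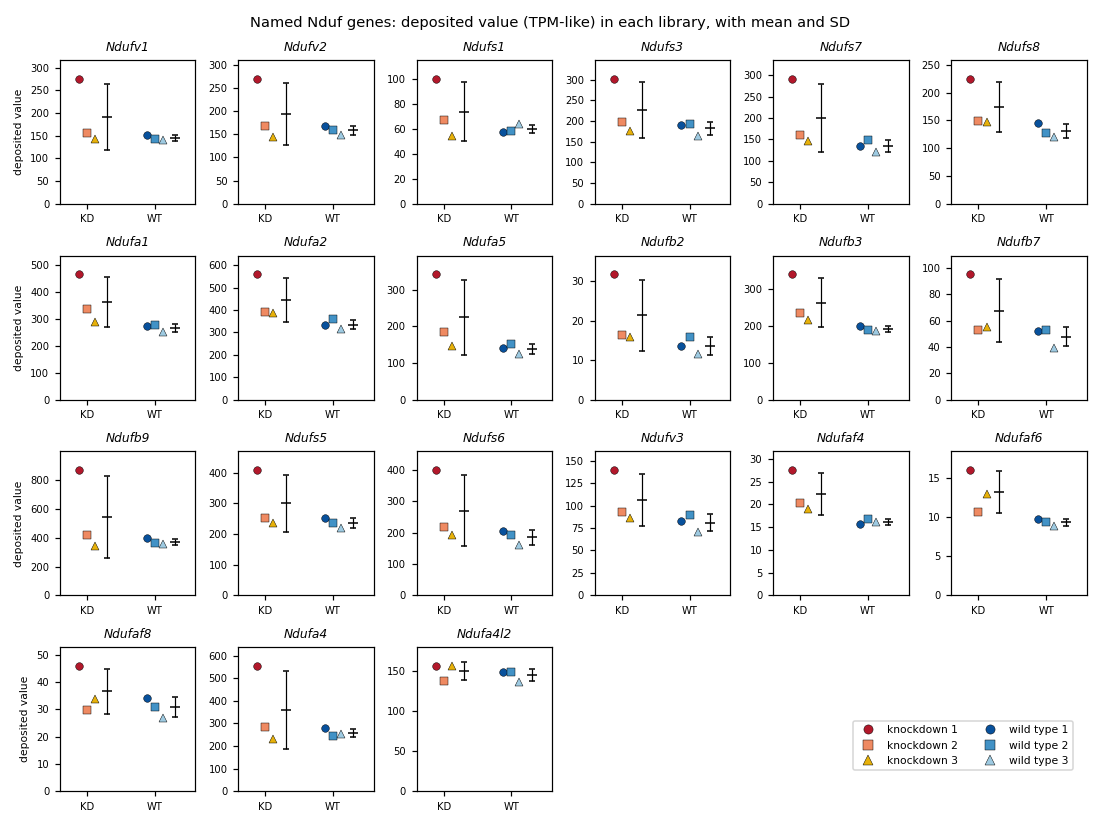
Deposited values on linear axes that start at 0, for 21 Nduf genes, with the labelled knockdown libraries (KD) left of wild type (WT). Bars show the mean and SD of 3 libraries. For Ndufv1, as for most panels, the labelled knockdown SD (73.5) reflects replicate 1, while wild-type values sit close together (SD 6.61). Ndufa4l2 is flat across all 6.

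Accessory subunits named NDUFS and NDUFV had a median of 0.33 over 4 genes, all above 0 and all overlapping between the groups. Ndufv3 was at 139, 92.4 and 85.8 in the libraries labelled knockdown and 83.0, 89.2 and 70.8 in wild type. Ndufs6, a zinc-binding subunit of the matrix arm, was at 399.6, 218 and 192 against 206, 192 and 159.8. Ndufs5 was at 408, 253 and 238 against 251, 235 and 219. For each of the 3, wild-type replicate 3 was the lowest library. Ndufs4, whose loss in mice gives a Leigh-like disease, had a log2 difference of 0.24 (SE 0.19).

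The NDUFAF assembly factors were less uniform. Of 8 genes, 6 were above 0, with a median log2 difference of 0.11 and a range from -0.14 to 0.44. With columns rescaled to the same sum, which lowered the median of all genes to -0.13, 3 of the 8 were above 0 and their median was -0.03. Their median in replicate 1 of the labelled knockdown group was 1.28 times the wild-type mean, with a range from 0.992 to 1.71. The 2 members of the whole family with the smallest p-values were among them. Ndufaf6 was at 16.0, 10.6 and 13.0 in the libraries labelled knockdown and at 9.76, 9.36 and 8.91 in wild type (log2 difference 0.44, SE 0.15, limma adjusted p = 0.301). Ndufaf4, which acts with Ndufaf3 early in assembly, had 27.5, 20.2 and 19.0 in the libraries labelled knockdown, against 15.6, 16.9 and 16.1 in wild type (log2 difference 0.42, SE 0.15, limma adjusted p = 0.302). In both, every library labelled knockdown was above every wild-type library, and the differences without replicate 1 were 0.30 for Ndufaf6 and 0.26 for Ndufaf4. Both are low, and the closest libraries of the groups were about 1 step of the table apart for Ndufaf6 and about 2 for Ndufaf4, where most low values move in steps of 0.895 to 1.163.

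The remaining assembly factors overlapped between the groups. Ndufaf8, the partner of Ndufaf5, was at 45.8, 29.8 and 33.9 in the libraries labelled knockdown and 34.2, 30.9 and 26.9 in wild type. Ndufaf5, which hydroxylates an arginine of Ndufs7, had a log2 difference of -0.14 (SE 0.12), and Ndufaf2, an assembly factor related to Ndufa12, had -0.02 (SE 0.11). These were the members below 0. Ndufaf7, an arginine methyltransferase, was at 0.03 (95% interval -0.19 to 0.24), Ndufaf3 at 0.10 and Ndufaf1 at 0.11. Without replicate 1 of the labelled knockdown group Ndufaf5 was at -0.23, its remaining libraries (15.4 and 17.0) lying below all wild-type values (20.5, 17.8 and 19.0). In that setting 2 members, Ndufaf5 and Ndufa9, were lower without overlap, beside 11.9% of all genes. There were 10 higher without overlap, beside 16.6%.

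The rule also takes in a pair of genes that share the name but not the complex. Ndufa4, now assigned to complex IV, had the order of libraries seen in most subunits, at 554, 286 and 233 in the libraries labelled knockdown against 279, 245 and 251 in wild type, and its log2 difference of 0.37 (SE 0.30) was -0.00 without replicate 1 of the labelled knockdown group. Its paralog Ndufa4l2, a hypoxia-induced gene that lowers respiratory activity, was at 155, 137 and 156 against 148, 148 and 136. Its log2 difference was 0.05 (95% interval -0.18 to 0.28), so it lay near its wild-type level in the library where Ndufa4 was at 2.14 times its own.

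Ordered by mean level over the 6 libraries, a length-corrected scale, the subunits spanned from 457 for Ndufb9 to 17.5 for Ndufb2. Ndufb9 was followed by Ndufa2 at 390.1, Ndufb10 at 331, Ndufa1 at 316 and Ndufa8 at 311. The assembly factors stood at the foot of the order, from Ndufaf8 at 33.6 to Ndufaf6 at 11.3, with Ndufb2 alone among the subunits at that level. Over all 6 libraries the ranges of each of the 45 neighbouring pairs in the order overlapped. Within wild type the spread was small (median coefficient of variation 6.40%, against 31.0% in the libraries labelled knockdown). There, 11 of the 45 pairs did not overlap, with the gene of higher mean lying wholly above the next. Ndufa2 and Ndufb10, Ndufs1 and Ndufab1, and Ndufb5 and Ndufaf8 were among these 11. Ndufa11 and Ndufa9, and Ndufaf4 and Ndufaf5, did not overlap either, but the first of each pair lay wholly below the second.

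Genes around the family showed where the same library was high. All 7 complex I subunits encoded in mitochondrial DNA had a higher mean in the libraries labelled knockdown, with a median log2 difference of 0.99, but 0 passed. mt-Nd4, a proton-pumping core subunit, had 28287, 11557 and 14078 in the libraries labelled knockdown, against 9347, 8119 and 6940 in wild type (log2 difference 1.04, SE 0.39, limma adjusted p = 0.313). For mt-Nd4l the values were 542, 185 and 915 against 55.4, 58.4 and 84.5 (log2 difference 2.78, SE 0.53, limma adjusted p = 0.296), so replicate 3 of the labelled knockdown group was its highest library. As a group the mitochondrially encoded subunits had medians of 3.48, 1.39 and 1.73 times the wild-type mean in the libraries labelled knockdown, where the 7 nuclear core subunits had 1.72, 1.09 and 0.968. With replicate 1 of the labelled knockdown group left out, 6 of the 7 mitochondrially encoded genes were above 0, with a median of 0.59.

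Assembly factors without the Nduf prefix had log2 differences above 0 for 8 of 11, a median of 0.13, and 0 past the test. Ecsit, which works with Ndufaf1, was at 41.1, 26.9 and 24.0 in the libraries labelled knockdown and 23.4, 22.5 and 18.6 in wild type (log2 difference 0.46, SE 0.20). Foxred1 had 24.1, 19.3 and 19.96 in the libraries labelled knockdown, against 17.6, 18.8 and 16.1 in wild type (log2 difference 0.25, SE 0.12). These were the 2 of the 11 that were higher without overlap, beside 12.6% of all genes. Their closest libraries, 24.0 and 23.4 for Ecsit and 19.3 and 18.8 for Foxred1, were less than 1 step of the table apart. The 11 genes summed to 404, 361 and 319 in the libraries labelled knockdown, against 352, 335 and 319 in wild type.

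Among the other complexes, medians of the log2 differences were 0.05 for 4 complex II genes, 0.35 for 9 of complex III, 0.35 for 14 of complex IV and 0.32 for 15 of complex V, with 0 genes called in each. The library labelled knockdown replicate 1 had medians of 1.32, 2.00, 1.87 and 1.78 times the wild-type mean for complexes II, III, IV and V. Sdhb (0.43) and Sdhc (0.10) of complex II, Uqcrq (0.51) and Uqcr11 (0.46) of complex III, Cox4i2 (0.69) and Cox8b (1.01) of complex IV, and Atp5h (0.45) and Atp5e (0.32) of complex V had the smallest unadjusted p in their lists. With replicate 1 of the labelled knockdown group left out, the medians were -0.11 for complex II, 0.02 for complex III, 0.09 for complex IV and 0.03 for complex V. Transcriptional regulators of mitochondrial genes had a median of 0.06 over 12 tested genes. Nrf1 had 13.9, 13.5 and 15.0 in the libraries labelled knockdown, against 12.7, 11.2 and 12.6 in wild type (log2 difference 0.20, SE 0.10), and Esrrb, with a log2 difference of 0.48, lay at 1 to 2 rounding steps.

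**Figure D3:**
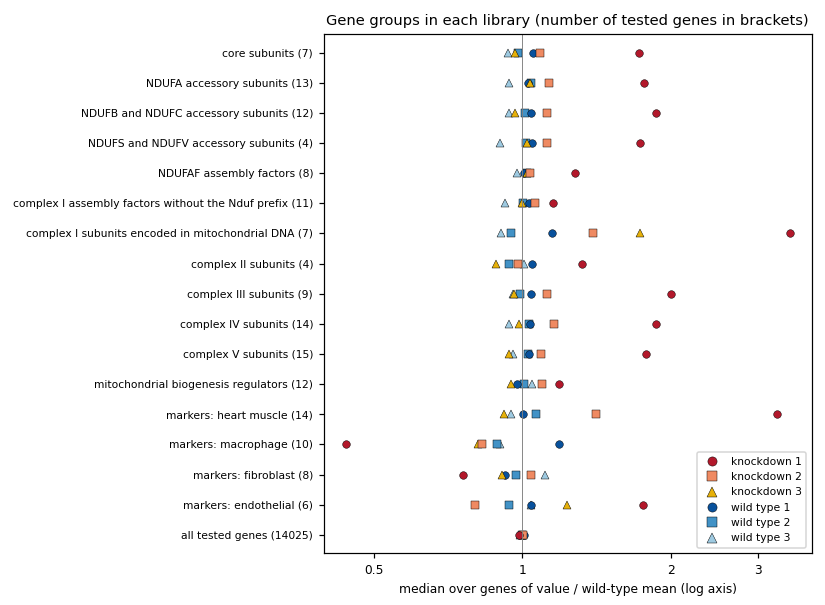
Each row is a gene group and each point a library. The horizontal log axis gives the median over the group of the value divided by the wild-type mean. The library labelled knockdown replicate 1 is at 1.72 for core subunits, 3.28 for heart muscle markers and 0.439 for macrophage markers, while all tested genes are at 0.987.

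Heart muscle markers were highest, and macrophage markers lowest, in the library where the Nduf genes were high. All 14 heart muscle markers had a higher mean in the libraries labelled knockdown, and their summed level was 28380, 13513 and 8152 there, against 9535, 9554 and 8515 in wild type. The libraries labelled knockdown kept the same order for the summed heart muscle and the summed Nduf values, replicate 1 highest and replicate 3 lowest. This order did not hold for every single marker. In wild type the highest library was replicate 2 for the heart muscle sum and replicate 1 for the Nduf sum. Myh6, the adult heart muscle myosin gene, was at 1214, 354 and 367 against 265, 277 and 272. All 10 macrophage markers had a lower mean, with sums of 3855, 7708 and 6577 against 11006, 8298 and 8251. With replicate 1 of the labelled knockdown group left out, 10 of 14 heart muscle markers were above 0 with a median of 0.20, and 10 of 10 macrophage markers were below 0 with a median of -0.29. Endothelial markers, with 5 of 6 higher on average, summed to 880, 389 and 592 against 482, 453 and 501, and fibroblast markers, with 3 of 8 higher, to 13060, 20409 and 17740 against 18390, 18398 and 21532. Of the adipocyte markers 5 of 6 tested were lower on average, and the list was low in replicates 1 and 2 of the labelled knockdown group (sums 34.3 and 26.1) but not in replicate 3 (1451), against 496, 1378 and 711 in wild type, and the brown fat gene Ucp1 was below 1 in every library. B cell markers (61.1, 67.4 and 523 against 801, 673 and 1326) and mesothelial markers (18.7, 31.5 and 169 against 80.9, 119 and 103) were low in the same libraries, with 6 of 6 lower on average in both lists. Of 6 skeletal muscle markers 3 were in the table, with sums of 13.0, 24.2 and 25.0 against 14.6, 15.9 and 10.6.

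When the fit took in a heart muscle score per library (the mean log2 level of the markers), the median of the Nduf log2 differences was 0.01 and 24 of 46 were above 0, and 0 members had an unadjusted p under 0.05, beside 5.96% of all genes higher at that level. The score, relative to the mean of each marker over the 6 libraries, was 1.335, 0.145 and -0.47 in the libraries labelled knockdown. In wild type it was -0.339, -0.321 and -0.350. It thus largely marked the library labelled knockdown replicate 1, so this fit cannot tell muscle content from any other trait of that library. Whether the cell make-up of replicate 1 accounts for its Nduf level was not tested.

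**Figure D4:**
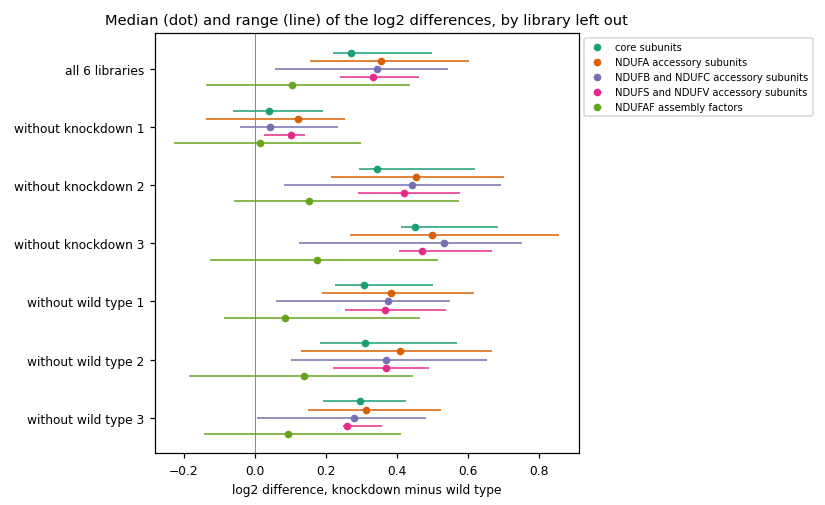
Dots give the median and lines the range of the log2 differences, labelled knockdown minus wild type, for 5 role groups, with all libraries and with each left out. With knockdown replicate 1 left out the medians lie at 0.04 for core, 0.12 for NDUFA, 0.04 for NDUFB and NDUFC, 0.10 for NDUFS and NDUFV and 0.01 for assembly factors.

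Single libraries set the size of these values. Leaving out the library labelled knockdown replicate 3 brought the median of the members to 0.48 and the number with an unadjusted p under 0.05 to 21, all higher, beside 9.71% of all genes higher at that level. Leaving out replicate 1 of the same group left 2, Ndufb3 and Ndufaf4, beside 6.58%. Leaving out replicate 2 gave a median of 0.41. With 1 wild-type library left out the median ran from 0.27 to 0.36. No member was called under any of these.

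The genes lie on 17 chromosomes and all 46 are annotated as protein coding in GENCODE M21 (mm10). For 22 of them the gene overlaps another annotated gene, on the other strand for 18. Of the 2 library kits named in the labels, 1 is called directional, but which was used and whether counting used strand are not given, so reads of such neighbours may be mixed. Ndufb9 lies on chromosome 15, from 58933756 to 58939488 on the plus strand, and overlaps a gene on its own strand. Ndufa5 lies on chromosome 6, from 24518666 to 24528013, and Ndufs7 on chromosome 10, from 80249121 to 80256794.

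Promoter windows from RefSeq (GRCm38.p6), 250 bases before to 50 after a start, matched 40 of the 46 genes, with 42 windows. The regulators NRF1, GABP, ERR and YY1 are known from cell studies to bind promoters of respiratory chain genes, so short cores of their motifs were searched on both strands. GCATGCG, the core used for NRF1, was in 11.9% of the 42 windows, 3.58% of all 32851 and 4.44% of the 21262 of protein-coding genes. For ATGGCGG, used for YY1, these shares were 26.2%, 4.05% and 5.24%, but it also matches sequence around a translation start. In the same order, CCGGAAG (ETS factors such as GABP) was in 14.3%, 8.86% and 11.6%, AAGGTCA (ERR) in 7.14%, 4.72% and 4.08%, and ACGTG (hypoxia-inducible factor) in 19.0%, 19.6% and 20.9%. Matches to GCATGCG and its complement overlap each other by construction where both occur. The shares count windows and not genes: Ndufa7 enters through a pair of overlapping windows that both hold ATGGCGG and ACGTG. Of the 42 upstream stretches, 17 overlap an exon of another gene, such as Mrpl47 beside Ndufb5 and Mrpl36 beside Ndufs6, which encode mitochondrial ribosomal proteins. For 23 the stretch overlaps an annotated exon of the gene itself.

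The 4 upstream stretches that overlap no annotated exon and hold an NRF1, ETS or ERR core are shown, with the matched core in capitals, because they give the letters behind those shares. They run 5′ to 3′ in the direction of the gene and end at the base before the RefSeq start. Ndufaf4 is at chr4:24897833-24898082 (plus strand) and holds the NRF1 core on both strands, starting 112 and 111 bases before the start. Ndufb2 is at chr6:39592315-39592564 (plus) with an ERR core 181 bases before the start. Ndufaf1 is at chr2:119662835-119663084 (minus) with an ETS core 18 bases before the start, and Ndufb6 at chr4:40279422-40279671 (minus) with one 232 bases before it.
Ndufaf4: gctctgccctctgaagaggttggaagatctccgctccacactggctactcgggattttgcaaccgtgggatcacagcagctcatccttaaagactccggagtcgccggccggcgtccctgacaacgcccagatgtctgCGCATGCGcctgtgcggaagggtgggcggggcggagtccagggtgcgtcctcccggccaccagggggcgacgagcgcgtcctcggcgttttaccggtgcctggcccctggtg
Ndufb2: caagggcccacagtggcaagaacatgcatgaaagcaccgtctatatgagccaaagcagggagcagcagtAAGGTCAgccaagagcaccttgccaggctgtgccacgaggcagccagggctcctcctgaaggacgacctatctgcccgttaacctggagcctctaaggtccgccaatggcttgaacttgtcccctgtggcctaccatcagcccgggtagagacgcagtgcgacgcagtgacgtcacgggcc
Ndufaf1: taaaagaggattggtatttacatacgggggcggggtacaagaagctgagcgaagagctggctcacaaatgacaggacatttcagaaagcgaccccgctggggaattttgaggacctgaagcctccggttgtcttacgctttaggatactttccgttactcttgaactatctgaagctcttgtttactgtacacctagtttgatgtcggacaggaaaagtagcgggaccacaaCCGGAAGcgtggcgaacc
Ndufb6: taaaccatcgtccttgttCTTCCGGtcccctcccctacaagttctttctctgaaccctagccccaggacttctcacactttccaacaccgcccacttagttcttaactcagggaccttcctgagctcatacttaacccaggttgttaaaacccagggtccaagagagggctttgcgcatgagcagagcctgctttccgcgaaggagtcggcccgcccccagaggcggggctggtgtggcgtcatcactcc
In the library labelled knockdown replicate 1, these genes stood at 1.70 (Ndufaf4), 2.32 (Ndufb2), 1.36 (Ndufaf1) and 1.47 (Ndufb6) times their wild-type mean. A match is a description of these letters and does not show binding.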

How the data were processed

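The authors deposited one matrix of symbols by libraries, named TPM, whose columns do not sum to 1000000, so its values are treated as a score that the authors adjusted in some way. In 5 libraries nearly all small values fall on multiples of a step (0.895 to 0.998). In the library labelled knockdown replicate 1 the step is 1.163, 96.9% of small values lie within 0.15 of a step of a multiple, and 1077 values lie above 0 but under 0.2, against 0 in each of the others. Column totals divided by their step ran from 996692 to 1007327, near 1000000. Each column thus looks like TPM multiplied by a factor of its own. Ratios to the wild-type mean carry this factor, which was highest in the library labelled knockdown replicate 1. Per the submitters' processing notes, reads were handled on mm10. No aligner, quantifier or adjustment is named in the labels.

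Where a symbol occurred more than once, the row of highest mean was used, which dropped 6 of 16205. Values were analysed as log2(value + 1) for 14025 genes with a mean of at least 1, so fold changes of low genes are understated. The groups were compared in R 4.3.3 by limma 3.58.1 (trended variance, no covariate, Benjamini-Hochberg adjustment at 0.05). This test was chosen when TPM was assumed and also suits the score. The fit was also run on simulated data, with independent noise of equal spread in all libraries. The real libraries do not share that spread, so the simulation checks the code and not the test on these data. Pearson correlations between libraries ran from 0.936 to 0.984 on the log2 scale, so none were identical.

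The members and lists were chosen with earlier results of these data known. One member enters the counts and medians but is not reported here by itself. Values per library are given for core subunits, the 3 members with the smallest unadjusted p in each other role group, Ndufa4, Ndufa4l2 and the members with the highest and lowest mean, and for further genes chosen after their values were seen (Ndufa9, Ndufc2, Ndufaf5 and Myh6). In each pathway list the 2 genes with the smallest p are named. Coordinates come from GENCODE M21, of the same build. Alternatives were another pseudocount, filter, scaling, variance model, covariate or replicate block, and each library left out.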

Additional observations from a re-analysis of the deposited data

How the results depend on the processing

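The number of called members was 0 in each direction under every alternative run (without the library labelled knockdown replicate 3, 13 other genes were called lower, and without wild-type replicate 2, 2 other genes), and Itih5 stayed above 0 and uncalled in all of them, from 0.06 to 0.52 with 1 library left out. The median log2 difference of the members was 0.32 and lay between 0.17 and 0.37 under the alternative pseudocounts, filters, scalings, variance models and sample weights. It was 0.014 with the heart muscle score as covariate, and ran from 0.05 to 0.48 with 1 library left out. Rescaling columns to 1000000 shifted the median of all genes to -0.13 and that of the members to 0.18, which is 0.31 above all genes. The count of members higher without overlap was 5 under that rescaling (5.92% of all genes; 1 was lower, beside 17.1%), 5 with median-centred columns (8.91%), 16 with quantile normalization (10.7%) and 18 with mitochondrially encoded genes left out (20.1%), against 10 (12.6%). With the heart muscle score as covariate 24 of 46 members were above 0, against 44, and those that turned included Ndufv1 (-0.033), Ndufv2 (-0.11), Ndufs1 (-0.076), Ndufs3 (-0.027), Ndufa4 (-0.11) and Ndufb9 (-0.089). After that rescaling 39 of 46 were above 0, with Ndufa4l2 at -0.10, and with sample weights 42 of 46, with Ndufa4l2 at -0.0054. Leaving out 1 library, Ndufv2 ran from -0.028 to 0.43 and Ndufa4 from -0.0013 to 0.62. The cause of these turns was not tested.

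The labels number the libraries of both groups 1 to 3. With the replicate number as a replicate block the median stayed at 0.32, the members called stayed at 0 higher and 0 lower, Itih5 stayed at 0.26, and 10 members were higher at an unadjusted p under 0.05 (7.41% of all genes), against 4 (8.29%) without it. Same-numbered libraries deviated together with correlations of 0.056, 0.061 and 0.143, and each library labelled knockdown correlated best with the wild-type library of its own number. These correlations are weak. The matches are not independent, because deviations were taken from the mean of each group, so they cannot tell whether the libraries are paired. Read depth is unknown, and genes at low levels lie few steps above 0.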

Other observations

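Ndufb1-ps, left out by its name, was at 134, 114 and 81.8 in the libraries labelled knockdown and 83.0, 115 and 103 in wild type (log2 difference 0.12, SE 0.20), so its highest library was the same one as for the subunits.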
